A study of Mus musculus with 12 samples.

Results

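Hemin was compared with vehicle in primary oligodendrocyte progenitor cells of wild-type mouse brain, the glial precursors from which myelinating oligodendrocytes form. The 3 hemin libraries came from cells given 50 µM hemin, the oxidised form of heme, and the 3 vehicle libraries from cells given the solvent DMSO, each for 12 h. All 6 libraries of these groups entered the comparison, out of 12 in the series, where the other 6 also received hemin, with interleukin-10 alone or with stattic, a STAT3 inhibitor. Membership followed the treatment labels and used no measured value. The labels give no age or number of animals. Nothing in them tells whether a replicate is its own culture, so the tests measure only how far these libraries spread, which may be technical.

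Heme is a cofactor inside proteins and a toxic pro-oxidant when free, as it is after bleeding into brain tissue. Heme oxygenase opens its ring and releases iron, which ferritin stores and ferroportin exports. The transcription factor BACH1 represses the heme oxygenase gene until heme binds it, NRF2 then drives the same gene and other antioxidant genes, HSF1 drives chaperone genes when proteins misfold, and ATF4 drives amino acid supply genes when translation initiation is restrained.

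Gene levels are given in CPM, the gene's counts scaled to the library total with a composition factor (TMM). The 6 libraries held between 9404448 and 10253038 expected counts each. Vehicle libraries listed 15051 to 15369 genes and hemin libraries 16505 to 16899, and the 100 genes with the most counts took 14.3% to 15.8% of vehicle counts and 19.1% to 21.0% of hemin counts. Of 18181 genes listed in any of the 6, 13967 had enough counts to be tested. The progenitor identity was checked with 11 markers. Their summed level was 5805 to 8069.8 CPM with vehicle and 2698 to 4593 CPM with hemin, and none of the 11 was absent from either group. In the test 0 rose and 3 fell of 11 tested (1 fell without vehicle 1 or 3 or hemin 1 or 2, 5 fell without stattic 3), with a median log2 change of -1.48. The same libraries also held astrocyte genes (12 markers tested, summed level 2752 to 7074 CPM with vehicle and 2274 to 3198 CPM with hemin), of which 0 rose and 1 fell (0 fell without vehicle 1 or 2 or any hemin library), and genes of radial glia or ependymal cells (8 tested, 5938 to 6731 CPM with vehicle and 7444 to 8881 CPM with hemin), of which 0 were called by edgeR (0 at an unadjusted p under 0.05 and 0 by DESeq2). In the last list the ependymal gene Tmem212 had no counts, and in the astrocyte list Gjb6 had 1 count with vehicle and 0 with hemin.

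Hemin changed the level of many genes. At a Benjamini-Hochberg adjusted p under 0.05 in edgeR's quasi-likelihood test, 2917 genes (20.9% of those tested) were called, 1639 higher with hemin (11.7%) and 1278 lower (9.15%). These shares are the background for every gene group below, together with the median log2 change over all tested genes, 0.03. Of the called genes 56.2% were higher, against 46.7% when scaled to library totals alone and 35.2% on log2(FPKM + 1). Genes called higher had a median absolute log2 change of 2.20 and went from a median of 2.47 CPM with vehicle to 13.7 CPM with hemin. Genes called lower had a median absolute log2 change of 1.18 and went from 55.4 to 23.8 CPM. A rise of at least 8-fold was found for 523 called genes and a fall of that size for 20, with genes that had no counts in 1 group entered at their bound. Genes whose fitted change was at least 2-fold numbered 1409 (10.1%) among those called higher and 875 (6.26%) among those called lower.

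The genes called higher held 5.13%, 5.62% and 5.35% of all tested counts in the vehicle libraries and 16.1%, 18.2% and 14.4% in the hemin libraries. Those called lower went the other way, from 13.8%, 13.0% and 13.4% to 5.29%, 5.09% and 6.04%. All 3 hemin libraries lay above all 3 vehicle libraries for 3572 genes (25.6%) and below them for 3417 (24.5%). With each of the 6 libraries left out in turn, 635 genes were called higher and 397 lower in every one of the 6 fits as well as in the full one. Leaving out 1 vehicle library or hemin 2 lowered both counts by more than 1.5 times, to 803 and 567 without vehicle 1, 920 and 706 without vehicle 2, 834 and 638 without vehicle 3, and 867 and 442 without hemin 2. One further library, the third with hemin, interleukin-10 and stattic (called stattic 3 here), is in neither group but enters the filter, the scaling and the estimate of the spread. It stood apart from the other libraries. Ribosomal protein genes took 9.76% of its counts and its top 100 genes 26.5%, the highest shares of the 12 libraries. Its composition factor, 0.81, was the lowest. Without it 2287 genes were called higher and 1969 lower. Where a list's count moves by more than 1.5 times without one of these 7 libraries, the value and the library stand in brackets after the count.

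**Figure D1:**
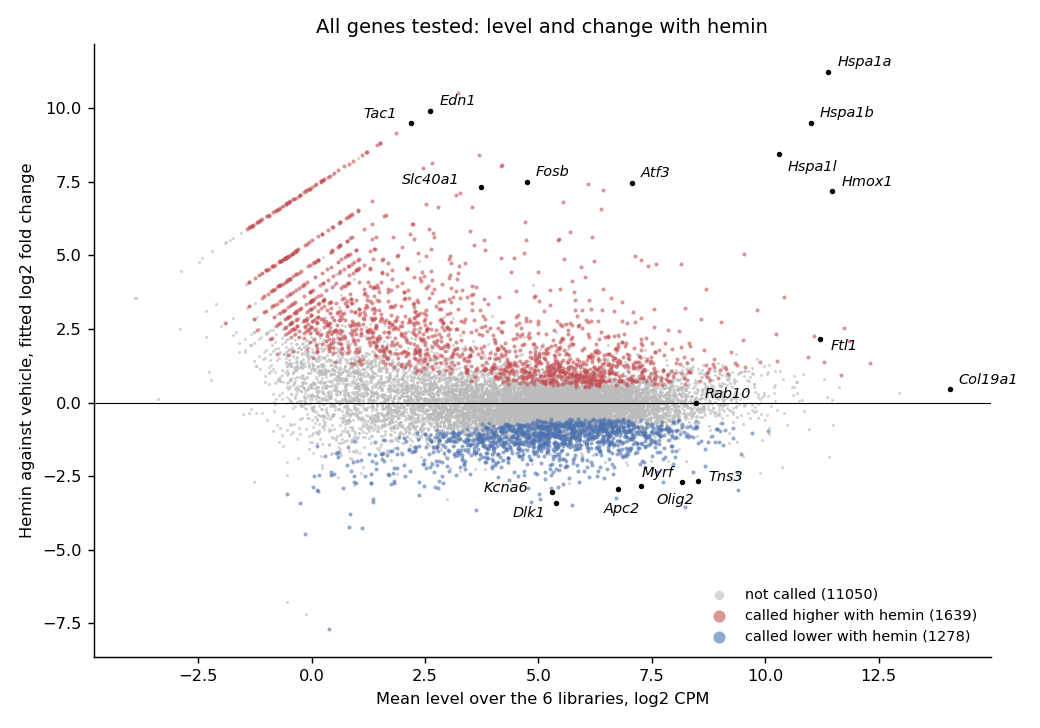
Fitted log2 fold change of hemin against vehicle (vertical axis) by mean level over the 6 libraries in log2 CPM (horizontal axis), 1 point for each of the 13967 genes tested. Red and blue points are the 1639 and 1278 called genes. The parallel streaks at the upper left are genes with 0 or very few counts with vehicle, whose fitted values are no measure of size.

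Single genes of heme breakdown, iron storage and iron export rose. Hmox1, the inducible heme oxygenase, stood at 37.6, 55 and 24.5 CPM with vehicle and 8208, 6294 and 2502 CPM with hemin (log2 fold change 7.18 ± 0.83 (SE), adjusted p = 0.00037). Every hemin library exceeded every vehicle library by more than an order of magnitude, and hemin 3 was the lowest of the treated ones. Slc40a1, ferroportin, the iron exporter of the cell membrane, was close to undetected with vehicle, at 0.186, 0.183 and 0.0952 CPM, and reached 47.4, 21.6 and 10.8 CPM with hemin (log2 fold change 7.31 ± 0.73 (SE), adjusted p = 0.00011). Ferritin light chain Ftl1 rose (855, 968 and 779.7 CPM with vehicle and 5195, 4139 and 2199.7 CPM with hemin; log2 fold change 2.15 ± 0.41 (SE), adjusted p = 0.0049). Ferritin heavy chain Fth1 rose as well (454, 430.1 and 312 CPM with vehicle and 3128, 1949.7 and 953 CPM with hemin; log2 fold change 2.33 ± 0.49 (SE), adjusted p = 0.0082). For all 4 genes the groups did not overlap, and hemin 1 was the highest and hemin 3 the lowest library. These 4 calls held with each of the 6 libraries left out in turn.

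Beyond these, few members of the heme and iron lists were called. Among heme synthesis, degradation and transport genes 3 rose and 1 fell of 18 tested (1 rose without any vehicle library or hemin 1 or 2, 0 fell without any vehicle library or hemin 2 or 3, 3 fell without stattic 3), with a median log2 change of -0.10. The other called members were Flvcr2, a heme or choline transporter of the FLVCR family (0.308 to 2.42 CPM), Blvrb, a biliverdin reductase (9.37 to 45.2 CPM), and Alas1, the first enzyme of heme synthesis, which fell from 40.5 to 23.2 CPM. All 3 calls were lost in fits that left out a library: Flvcr2 without vehicle 1, 2 or 3 or hemin 1 or 2 (adjusted p up to 0.1), Blvrb without vehicle 1, 2 or 3 or hemin 1 or 2 (adjusted p up to 0.15), Alas1 without vehicle 1, 2 or 3 or hemin 2 or 3 (adjusted p up to 0.14). Among iron storage, uptake and export genes 4 rose and 0 fell of 17 tested (1 fell without stattic 3), with a median log2 change of 0.59. Of the 17, 7 were higher and 3 lower in every hemin library than in every vehicle library, against 25.6% and 24.5% of all tested genes. Of the 4 that rose, 3 are given above. The fourth was Cp, the ferroxidase ceruloplasmin (5.75, 1.37 and 2.48 CPM with vehicle and 37.1, 9.84 and 4.01 CPM with hemin), whose groups overlapped and whose call was lost without vehicle 2 or 3 or hemin 1 or 2 (adjusted p up to 0.25). Tfrc, the transferrin receptor, had 72.2, 86.8 and 139 CPM with vehicle and 118, 153 and 179 CPM with hemin and was not called (log2 fold change 0.59 ± 0.32 (SE), adjusted p = 0.21).

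Some antioxidant genes rose, unevenly across the treated libraries. Of the NRF2 target list, 9 rose and 0 fell of 26 tested (4 to 5 rose without any vehicle library or hemin 1 or 2), with a median log2 change of 1.01. Gclc, the catalytic subunit that starts glutathione synthesis, was even over the treated libraries (70.1, 95.3 and 90.8 CPM with vehicle and 397, 463 and 529.8 CPM with hemin; log2 fold change 2.44 ± 0.28 (SE), adjusted p = 0.00033). Osgin1, an oxidative stress-induced growth inhibitor, was at 1.48, 1.55 and 0.381 CPM with vehicle and 265, 211 and 37.6 CPM with hemin (log2 fold change 7.21 ± 1.24 (SE), adjusted p = 0.0031). Srxn1, sulfiredoxin, which repairs peroxiredoxins, was at 43.4, 88.1 and 30.9 CPM with vehicle and 1288, 676 and 366 CPM with hemin (log2 fold change 3.84 ± 0.78 (SE), adjusted p = 0.0066). Hemin 3 was the lowest treated library for both, yet lay above all vehicle libraries. Sod1, the cytosolic superoxide dismutase, rose from 159 ± 17.3 to 394 ± 77.2 CPM (SD, n = 3). Slc7a11, the cystine carrier that feeds glutathione synthesis, was at 15, 31.4 and 15.9 CPM with vehicle and 767, 762 and 102 CPM with hemin. Its rise (log2 fold change 4.71 ± 1.13 (SE), adjusted p = 0.014) was lost without vehicle 1 or 3 (adjusted p up to 0.061). Nqo1, the quinone reductase often used to read NRF2, had 3.90, 2.56 and 7.14 CPM with vehicle and 46.3, 20.3 and 11.4 CPM with hemin (log2 fold change 2.52 ± 0.83 (SE), adjusted p = 0.049), and this call was lost without vehicle 1, 2 or 3 or hemin 1 or 2 (adjusted p up to 0.17), and without stattic 3. The Nqo1 call was lost as well with library totals, a mean of at least 5 CPM, limma-voom, FPKM values and a length offset.

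The median NRF2 target differed from the vehicle mean by 1.61, 1.04 and 0.13 in hemin 1, 2 and 3 on the log2(CPM + 1) scale, so that hemin 3 fell within the vehicle range of -0.02, 0.16 and -0.10. The regulators themselves were not called: Nfe2l2, which encodes NRF2, had 72.6, 90.1 and 43.7 CPM with vehicle and 225, 172 and 97.3 CPM with hemin (log2 fold change 1.26 ± 0.56 (SE), adjusted p = 0.13). Bach1 had 64.1, 64.8 and 67.8 CPM with vehicle and 89.7, 121 and 80.6 CPM with hemin (log2 fold change 0.57 ± 0.47 (SE), adjusted p = 0.42). In the ferroptosis and lipid peroxidation list 7 rose and 0 fell of 21 tested (1 fell without stattic 3), with a median log2 change of 0.45. Ptgs2, cyclooxygenase 2, went from 0.928, 1.19 and 0.190 to 179, 185 and 44.9 CPM (log2 fold change 7.44 ± 1.12 (SE), adjusted p = 0.0016). Acsl4, which loads polyunsaturated fatty acids into lipids, rose from 37.5 ± 7.50 to 120.0 ± 48.7 CPM (SD, n = 3), here with hemin 3 highest and hemin 1 lowest. Gch1, the first enzyme of tetrahydrobiopterin synthesis, rose from 0.938 ± 0.536 to 11 ± 1.20 CPM. The lipid peroxide reductase Gpx4 had 139.8, 141 and 138 CPM with vehicle and 221, 233 and 179 CPM with hemin and was not called (log2 fold change 0.59 ± 0.28 (SE), adjusted p = 0.16), but was without stattic 3 (adjusted p = 0.022).

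Many chaperone genes rose. Hspa1a, Hspa1b and Hspa1l had the 3 largest fitted rises among called genes with more than 3 counts over the vehicle libraries. Hspa1a, the stress-inducible HSP70, stood at 2.37, 2.50 and 1.67 CPM with vehicle and 2610.4, 8384 and 5039.7 CPM with hemin (log2 fold change 11.24 ± 0.64 (SE), adjusted p = 4.6e-06). Its near-identical copy Hspa1b stood at 5.89, 6.40 and 4.62 CPM with vehicle and 2118, 6502 and 3674 CPM with hemin (log2 fold change 9.51 ± 0.57 (SE), adjusted p = 4.6e-06). Both were at single-digit levels in each vehicle library and above 2000 CPM in each hemin library, highest in hemin 2. Hspa1l, a testis HSP70 whose gene lies next to Hspa1a, was counted at 8.54, 6.45 and 6.76 CPM with vehicle and 1300.5, 3979.7 and 2241 CPM with hemin (log2 fold change 8.43 ± 0.57 (SE), adjusted p = 1e-05). Reads of these 3 genes may not be separable, so how the rise divides between them is uncertain.

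Of the heat shock proteins and co-chaperones 16 rose and 0 fell of 24 tested (9 to 10 rose without vehicle 1 or 3 or hemin 2), with a median log2 change of 1.47. Hspb1, a small heat shock protein that holds unfolded clients, was at 0.835, 2.83 and 0.476 CPM with vehicle and 20.4, 83.6 and 22.9 CPM with hemin (log2 fold change 4.92 ± 0.72 (SE), adjusted p = 0.0013). Dnajb1, the J-domain partner of HSP70, was at 55.8, 55.5 and 63.8 CPM with vehicle and 434, 861 and 326 CPM with hemin (log2 fold change 3.21 ± 0.39 (SE), adjusted p = 0.00046). Hemin 2 was again the highest library for both, and the groups did not overlap. Hsph1, a nucleotide exchange factor for HSP70, was at 179.6, 207 and 165 CPM with vehicle and 1116, 2647 and 1098 CPM with hemin (log2 fold change 3.14 ± 0.53 (SE), adjusted p = 0.003). Hsp90aa1, the inducible HSP90, rose from 742 ± 56.4 to 3583 ± 1439 CPM (SD, n = 3). Hspa8, the constitutive HSP70, rose from 2867 ± 555 to 7289.8 ± 1676 CPM, a call lost without vehicle 3 (adjusted p up to 0.058). Cryab, a small heat shock protein of glia, averaged 3.47 to 55 CPM and was not called (adjusted p = 0.08).

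The promoters of this list were searched for a heat shock motif. HSF1 binds inverted repeats of GAA, and the core GAANNTTC was searched on both strands in windows from 250 bases before to 50 bases after each annotated start, taken from RefSeq (GRCm38.p6). It was present in 12 of 25 windows of the tested heat shock list (48.0%), in 7.86% of all 32851 windows and in 5.71% of windows of tested genes. Of the 11 list genes with a match 8 were called higher, and of the 8 with a window and no match 5 were. Among genes called at least 2-fold higher 6.07% of windows held it, and 4.80% among genes called at least 2-fold lower. The matches are not all separate: those of Hspd1 and Hspe1 are the same bases read from opposite strands, and Hspa1a and Hspa1b are near-identical copies. A match describes the letters only, and no binding was measured. Upstream stretches of 4 called genes are shown 5′ to 3′ on the gene's strand with the core in capitals: Hspa1a at chr17:34972227-34972286, minus strand, Hspa1b at chr17:34959309-34959368, minus strand, Hspb1 at chr5:135887789-135887848, plus strand, and Hspe1, the mitochondrial co-chaperonin, at chr1:55088038-55088097, plus strand.
Hspa1a: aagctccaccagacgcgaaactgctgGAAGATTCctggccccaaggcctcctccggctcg
Hspa1b: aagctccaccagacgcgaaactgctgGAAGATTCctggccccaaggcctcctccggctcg
Hspb1: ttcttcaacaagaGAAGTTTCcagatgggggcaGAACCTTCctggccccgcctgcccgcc
Hspe1: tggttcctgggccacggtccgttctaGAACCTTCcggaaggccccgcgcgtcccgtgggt

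The Hspa1a and Hspa1b stretches were the same in all 60 bases, with the core at positions -104 to -97 from the start. Hspb1 held 2 cores, at -117 to -110 and at -97 to -90. Hspe1 held 1 at -84 to -77, and its level rose from 176 ± 25.7 to 442 ± 82.7 CPM (SD, n = 3; log2 fold change 1.33 ± 0.22 (SE), adjusted p = 0.0023).

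A few protein disposal genes rose. Of the ubiquitin genes and autophagy receptors 3 rose and 0 fell of 20 tested (10 rose without stattic 3, 1 fell without stattic 3), with a median log2 change of 0.48. Ubb, a polyubiquitin gene, was at 1394, 1267 and 1532 CPM with vehicle and 3914, 4094 and 2851 CPM with hemin (log2 fold change 1.37 ± 0.29 (SE), adjusted p = 0.0077). Sqstm1, the autophagy receptor p62, was at 197, 248 and 183 CPM with vehicle and 3149.9, 3626 and 756 CPM with hemin (log2 fold change 3.58 ± 0.78 (SE), adjusted p = 0.009), with hemin 3 again lowest of the treated libraries. Of the proteasome subunits 8 rose and 0 fell of 31 tested (0 to 1 rose without any vehicle library or hemin 1 or 2, 15 rose without stattic 3), with a median log2 change of 0.69. Of the 31, 20 were higher in every hemin library than in every vehicle library, against 25.6% of all tested genes. Psmc2, an ATPase of the regulatory particle, went from 122 ± 12.5 to 259 ± 62.7 CPM, and its call was lost without vehicle 1 or hemin 2 (adjusted p up to 0.061).

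**Figure D2:**
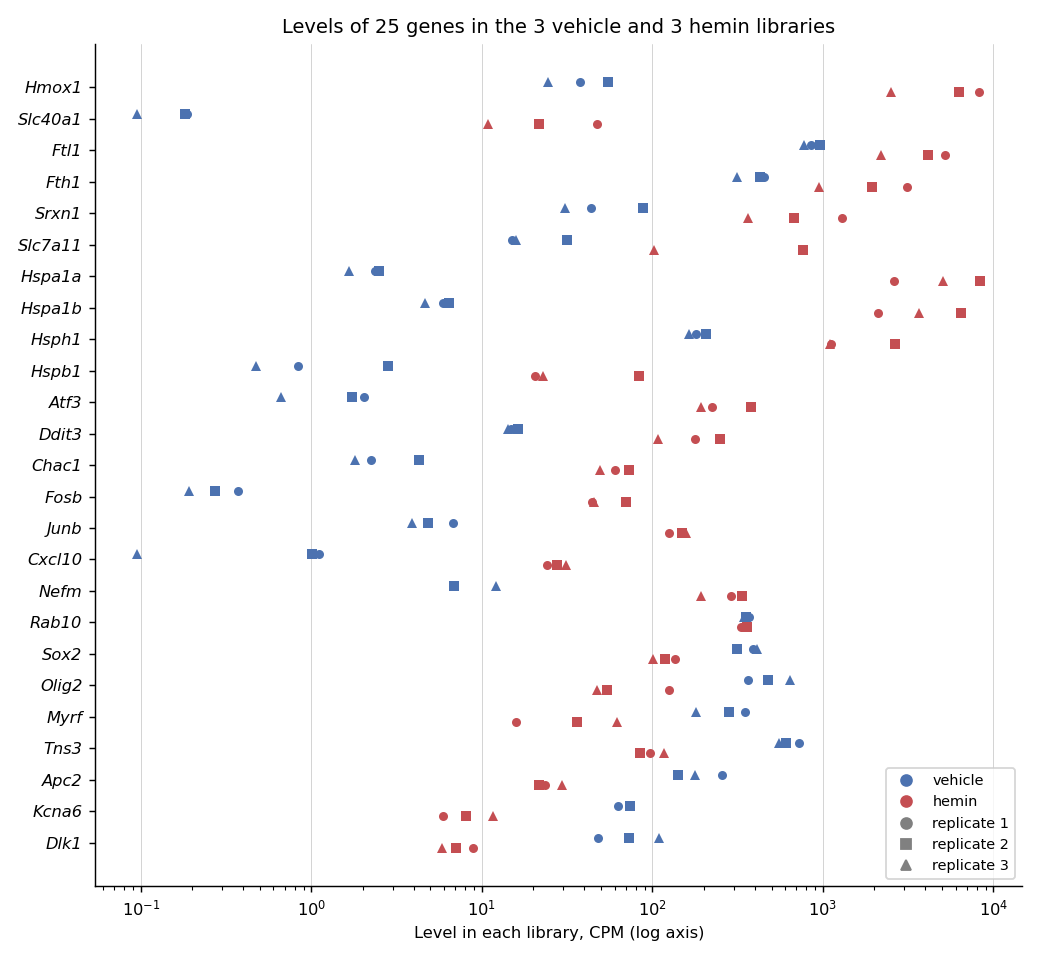
Level of 25 genes in each of the 3 vehicle (blue) and 3 hemin (red) libraries, in CPM on a log axis, with 1 marker shape per replicate. The groups do not overlap for any gene drawn except Rab10, a gene with an interval near 0.

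Most genes of the amino acid response rose in the full fit. Of the ATF4 and CHOP response 14 rose and 0 fell of 18 tested (9 rose without vehicle 1 or 3), with a median log2 change of 3.43, also with the member without vehicle counts at its bound. Atf4, whose protein binds the amino acid response element, was at 95.5, 128 and 103 CPM with vehicle and 413, 401 and 331 CPM with hemin (log2 fold change 1.81 ± 0.34 (SE), adjusted p = 0.0049). Ddit3, which encodes CHOP, was at 14.8, 16.4 and 14.2 CPM with vehicle and 177, 248 and 107 CPM with hemin (log2 fold change 3.55 ± 0.47 (SE), adjusted p = 0.00076). Atf3, a stress-induced repressor, was at 2.04, 1.74 and 0.667 CPM with vehicle and 223, 377 and 194 CPM with hemin (log2 fold change 7.46 ± 0.66 (SE), adjusted p = 5.6e-05). Hemin and vehicle did not overlap for any of them, and the fitted log2 change was larger for Ddit3 and Atf3 than for Atf4.

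Chac1, which degrades glutathione, was at 2.23, 4.29 and 1.81 CPM with vehicle and 60.5, 73.1 and 49.1 CPM with hemin (log2 fold change 4.45 ± 0.38 (SE), adjusted p = 4.3e-05). Gdf15, a secreted stress cytokine, was at 1.39, 1.74 and 2.0 CPM with vehicle and 269, 209 and 19.2 CPM with hemin (log2 fold change 6.59 ± 1.32 (SE), adjusted p = 0.0063), with hemin 3 more than 10 times below the other treated libraries. Fgf21, a secreted metabolic hormone, had no counts in any vehicle library and 2.28, 5.02 and 1.10 CPM with hemin, at least 29.9-fold higher against a floor of 3 counts over the group. Cebpb, a C/EBP factor, rose from 1.14 ± 0.769 to 34.9 ± 9.18 CPM (SD, n = 3). Eif4ebp1, a translation inhibitor, rose from 16.3 ± 5.31 to 102 ± 51.2 CPM. In the list for the unfolded protein response of the endoplasmic reticulum 2 rose and 0 fell of 20 tested (1 rose without vehicle 2 or 3, 4 rose without stattic 3), with a median log2 change of 0.10, a share close to the background. Its called members were Herpud1, of the degradation machinery (12.6, 18.1 and 19 CPM with vehicle and 88.3, 134 and 77 CPM with hemin; log2 fold change 2.59 ± 0.30 (SE), adjusted p = 0.00043), and Xbp1 (30.9 ± 10.6 to 72.3 ± 17.9 CPM; lost without vehicle 2 or 3 (adjusted p up to 0.058)). The luminal chaperone Hspa5 averaged 477 to 1338 CPM and was not called (adjusted p = 0.18).

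Some enzymes that supply and charge amino acids rose too. Of the serine, asparagine, proline and one-carbon synthesis genes 6 rose and 0 fell of 16 tested (3 rose without vehicle 1), with a median log2 change of 0.75. Cth, which makes cysteine, was at 2.23, 2.74 and 3.14 CPM with vehicle and 42.6, 45.2 and 9.92 CPM with hemin (log2 fold change 3.59 ± 0.81 (SE), adjusted p = 0.011). Mthfd2, a mitochondrial folate enzyme, was at 32.2, 36.5 and 43.9 CPM with vehicle and 139.7, 155 and 76.6 CPM with hemin (log2 fold change 1.72 ± 0.34 (SE), adjusted p = 0.006). Asns, asparagine synthetase, rose from 60.01 ± 11 to 247 ± 117 CPM (SD, n = 3), a call lost without vehicle 1 (adjusted p up to 0.051). Of the cytosolic aminoacyl-tRNA synthetases 9 rose and 0 fell of 20 tested (4 to 5 rose without any vehicle library or hemin 1 or 2), with a median log2 change of 0.95. Cars, for cysteine, was at 59.4, 67 and 61.7 CPM with vehicle and 174, 241 and 165 CPM with hemin (log2 fold change 1.62 ± 0.25 (SE), adjusted p = 0.0018), and Tars, for threonine, went from 89.9 ± 13.8 to 292 ± 79.2 CPM.

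Of the amino acid transporters 4 rose and 2 fell of 17 tested (1 to 2 rose without vehicle 1 or 3, 0 to 1 fell without any of the 6), with a median log2 change of 0.73. Slc3a2, the heavy chain shared by several transporters including the cystine carrier, was at 121, 177 and 111 CPM with vehicle and 1203, 1138 and 377 CPM with hemin (log2 fold change 2.73 ± 0.55 (SE), adjusted p = 0.0064). Slc7a3, a cationic amino acid carrier, was at 3.26, 3.98 and 3.18 CPM with vehicle and 32.9, 32.1 and 10.02 CPM with hemin and its rise was lost without vehicle 1 or 3 (adjusted p up to 0.056). The glial glutamate carrier Slc1a2 fell from 281 ± 125 to 79.6 ± 14.1 CPM, a call lost without vehicle 1 or 2 or hemin 1, 2 or 3 (adjusted p up to 0.13).

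The promoters of these lists were searched for the matching element. The letters TGATGNAA, an amino acid response element as bound by ATF4 with C/EBP partners, were present in 35.0% of the 20 windows of the ATF4 and CHOP list, in 38.5% of the 13 windows of the tRNA synthetases and in 20% of the 15 windows of the synthesis list. The share was 3.97% of all windows and 2.32% of windows of tested genes. It was 5.53% among genes called at least 2-fold higher and 1.87% among those called at least 2-fold lower. Among synthetases, 4 of the 5 genes with a match and 1 of the 8 without were called higher. In the ATF4 and CHOP list the numbers were 6 of 7 and 7 of 10. Stretches upstream of 6 called genes are printed as above, with the element in capitals in the orientation in which it occurs: Atf3 at chr1:191183409-191183468, minus strand, Chac1 at chr2:119351022-119351081, plus strand, Slc7a11 at chr3:50443639-50443698, minus strand, Fgf21 at chr7:45615596-45615655, minus strand, Nupr1, a stress-induced chromatin protein, at chr7:126625546-126625605, minus strand, and Got1, aspartate aminotransferase, at chr19:43524676-43524735, minus strand.
Atf3: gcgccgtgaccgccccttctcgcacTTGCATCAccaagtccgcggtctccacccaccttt
Chac1: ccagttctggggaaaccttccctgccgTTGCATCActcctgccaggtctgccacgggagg
Slc7a11: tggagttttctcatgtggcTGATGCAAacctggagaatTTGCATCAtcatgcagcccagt
Fgf21: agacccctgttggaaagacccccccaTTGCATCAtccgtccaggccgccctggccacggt
Nupr1: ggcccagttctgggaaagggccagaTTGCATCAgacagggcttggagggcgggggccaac
Got1: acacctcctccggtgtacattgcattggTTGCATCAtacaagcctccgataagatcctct

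Slc7a11 carried 2 copies, 1 in each orientation. Nupr1 rose from 0.835 ± 0.231 to 8.53 ± 6.40 CPM and Got1 from 49.7 ± 2.06 to 107 ± 34.1 CPM (SD, n = 3), calls lost without vehicle 1, 2 or 3 or hemin 1 or 2 (adjusted p up to 0.13) and without vehicle 1, 2 or 3 or hemin 1 or 2 (adjusted p up to 0.13). The antioxidant response core TGACNNNGC, bound by NRF2 with small MAF proteins, was in 40.7% of the 27 windows of the NRF2 list, in 12.4% of all windows and in 14% of windows of tested genes. Of the 10 NRF2 list genes with a match 4 were called higher, and of the 11 with a window and no match 3 were. Over the function lists the share ran from 0% to 46.7%, the top value in the 15 windows of the amino acid transporters. It was 36% in the 25 windows of the AP-1, EGR and NR4A list. For AP-1 the site TGANTCA was in 8.80% of windows of genes called at least 2-fold higher, 4.56% of those called at least 2-fold lower and 5.19% of windows of tested genes.

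Most immediate early transcription factors rose. Of the AP-1, EGR and NR4A list 19 rose and 0 fell of 25 tested, with a median log2 change of 3.14. Fosb was at 0.371, 0.274 and 0.190 CPM with vehicle and 44, 70.2 and 45.4 CPM with hemin (log2 fold change 7.51 ± 0.47 (SE), adjusted p = 4.7e-06). Junb was at 6.77, 4.84 and 3.90 CPM with vehicle and 125, 149.8 and 158 CPM with hemin (log2 fold change 4.80 ± 0.29 (SE), adjusted p = 4.6e-06). Fos was at 14.2, 16.8 and 11.9 CPM with vehicle and 237, 377 and 503 CPM with hemin (log2 fold change 4.70 ± 0.36 (SE), adjusted p = 2.9e-05). These AP-1 subunits were low in every vehicle library, and Fos was highest in hemin 3, the library that was lowest for Hmox1. Maff, a small MAF protein, rose from 5.78 ± 1.31 to 100.4 ± 6.53 CPM (SD, n = 3) and Ier2, an immediate early nuclear protein, from 12.6 ± 2.80 to 111 ± 22.3 CPM. The list median was 2.82, 2.90 and 2.88 above the vehicle mean in hemin 1, 2 and 3 (log2(CPM + 1)), nearly the same in each.

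Some feedback and companion genes moved as well. Of the dual-specificity phosphatases, which inactivate MAP kinases, 5 rose and 0 fell of 15 tested, with a median log2 change of 0.99. Dusp1 was at 4.55, 4.11 and 6.38 CPM with vehicle and 64.5, 101 and 49.5 CPM with hemin (log2 fold change 3.83 ± 0.50 (SE), adjusted p = 0.00074). Dusp2, of the same family, was at 0.186, 0.914 and 0.476 CPM with vehicle and 12.3, 20.7 and 14.7 CPM with hemin (log2 fold change 4.88 ± 0.65 (SE), adjusted p = 0.00083). Of the Kruppel-like factors 4 rose and 2 fell of 12 tested (1 fell without vehicle 1 or 2 or hemin 1 or 2), with a median log2 change of 0.48. Klf4 rose from 0.558 ± 0.0871 to 23.3 ± 6.86 CPM (SD, n = 3), whereas Klf13 fell from 97.3 ± 15.7 to 19.5 ± 2.95 CPM (log2 fold change -2.32 ± 0.25 (SE), adjusted p = 0.00023). Of the clock genes 8 rose and 0 fell of 19 tested, with a median log2 change of 0.83. Nfil3, a repressor of clock output, was at 15.2, 15.7 and 13.1 CPM with vehicle and 63.3, 63.2 and 67.9 CPM with hemin (log2 fold change 2.14 ± 0.31 (SE), adjusted p = 0.0013). Ciart, a clock-associated repressor, was at 1.48, 2.47 and 1.24 CPM with vehicle and 13, 11.1 and 18.3 CPM with hemin (log2 fold change 3.02 ± 0.45 (SE), adjusted p = 0.0016). Nr1d2, one of the heme-binding REV-ERB receptors, rose from 18.1 ± 2.21 to 46.5 ± 11.3 CPM and Cry1, a clock repressor, from 32.6 ± 3.15 to 58.2 ± 3.84 CPM. Nr1d1, the paralog of Nr1d2, averaged 22.4 to 35.4 CPM and was not called (adjusted p = 0.12).

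Some genes for secreted signals rose from low levels. Of the chemokines 8 rose and 0 fell of 13 tested (5 rose without vehicle 3, 1 fell without hemin 1), with a median log2 change of 3.24 (3.24 too when 2 members that vehicle libraries lacked enter at their bounds). Cxcl10, which attracts T cells, was at 1.11, 1.01 and 0.0952 CPM with vehicle and 24.1, 27.5 and 31.1 CPM with hemin (log2 fold change 5.19 ± 0.62 (SE), adjusted p = 0.00046). Ccl2, which attracts monocytes, was at 0.464, 1.64 and 0.190 CPM with vehicle and 33.8, 8.81 and 4.41 CPM with hemin (log2 fold change 4.33 ± 0.90 (SE), adjusted p = 0.0076), highest in hemin 1. Il11, a cytokine of the IL-6 family, was at 0.186, 0.457 and 0.190 CPM with vehicle and 18.1, 7.89 and 3.51 CPM with hemin (log2 fold change 5.08 ± 0.68 (SE), adjusted p = 0.00087), also highest in hemin 1. Of the IL-6 and IL-1 family 4 rose and 0 fell of 14 tested, with a median log2 change of 0.89 (0.89 at the bound). Cntf, the ciliary neurotrophic factor, rose from 1.15 ± 0.192 to 7.86 ± 1.76 CPM (SD, n = 3), and Il33, an alarmin (1.76 ± 1.25 to 9.89 ± 1.98 CPM).

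Of the EGF family and other growth factor ligands 8 rose and 1 fell of 22 tested (3 to 5 rose without vehicle 1 or 3 or hemin 2, 0 fell without hemin 2), with a median log2 change of 1.26. The EGF receptor ligand Areg was at 0.0928, 0.457 and 0.0952 CPM with vehicle and 6.35, 8.71 and 6.91 CPM with hemin (log2 fold change 5.0 ± 0.54 (SE), adjusted p = 0.00023). Epgn, another, was at 0, 0.0914 and 0.0952 CPM with vehicle and 1.19, 3.89 and 3.81 CPM with hemin. The exception was Tgfa, also an EGF receptor ligand, which was already well detected and fell (86.4, 82.7 and 117 CPM with vehicle and 34.6, 29.2 and 47.3 CPM with hemin; log2 fold change -1.36 ± 0.32 (SE), adjusted p = 0.013; lost without hemin 2 (adjusted p up to 0.057)). Of the TNF ligands and receptors 8 rose and 0 fell of 15 tested (3 to 5 rose without any vehicle library), with a median log2 change of 2.27 (2.27 at the bound). Tnfrsf12a, the TWEAK receptor, was at 19.5, 53.7 and 24.2 CPM with vehicle and 259, 228 and 153 CPM with hemin (log2 fold change 2.72 ± 0.42 (SE), adjusted p = 0.0019). Among NF-kB subunits and inhibitors 6 rose and 0 fell of 15 tested, with a median log2 change of 0.80. Nfkbiz, an atypical inhibitor, was at 7.52, 9.32 and 5.71 CPM with vehicle and 72.6, 102 and 133 CPM with hemin (log2 fold change 3.77 ± 0.30 (SE), adjusted p = 3.7e-05).

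Of the IL-10 receptor, JAK, STAT and SOCS genes 5 rose and 0 fell of 20 tested (2 to 3 rose without vehicle 2 or 3 or hemin 2, 1 fell without hemin 1 or stattic 3), with a median log2 change of 0.27. Stat6, which mediates IL-4 signals, was at 0.464, 0.457 and 0.190 CPM with vehicle and 8.73, 3.79 and 3.11 CPM with hemin (log2 fold change 3.77 ± 0.55 (SE), adjusted p = 0.0013). Socs5 rose from 35.7 ± 4.49 to 97.8 ± 19.5 CPM (SD, n = 3). Of the interferon-stimulated genes 3 rose and 1 fell of 16 tested (0 to 1 rose without vehicle 2 or 3 or hemin 1 or 2, 0 fell without vehicle 1 or 3 or hemin 2 or 3), with a median log2 change of 1.18.

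Some matrix genes rose, and so did markers of other cell types. Of the matrix proteases and inhibitors 8 rose and 1 fell of 23 tested (0 fell without vehicle 1 or 2 or any hemin library, 3 fell without stattic 3), with a median log2 change of 0.68. Adamts1, an aggrecan protease, was at 22.7, 38.7 and 25.9 CPM with vehicle and 182, 278 and 139 CPM with hemin (log2 fold change 2.78 ± 0.42 (SE), adjusted p = 0.0017). Plau, urokinase, rose from 1.64 ± 0.326 to 21.1 ± 9.51 CPM (SD, n = 3). Of the collagens 7 rose and 0 fell of 22 tested (2 to 4 rose without any vehicle library or hemin 1, 1 fell without vehicle 3), with a median log2 change of 0.48. Col3a1, a fibrillar collagen, was at 3.34, 0.457 and 1.62 CPM with vehicle and 208, 22.5 and 23 CPM with hemin, and its call was lost without vehicle 2 or 3 (adjusted p up to 0.056). Col4a1, of basement membranes, was at 30.6, 18.3 and 14.5 CPM with vehicle and 431, 62.3 and 55.1 CPM with hemin, lost without vehicle 2 or 3 or hemin 1 (adjusted p up to 0.08). For both, hemin 1 was several times above hemin 2 and 3.

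Hemin 1 stood apart in the same way for the fibroblast and vascular markers, of which 8 rose and 0 fell of 13 tested (2 to 5 rose without any vehicle library or hemin 1), with a median log2 change of 3.88. Their summed level was 12.5 to 37.7 CPM with vehicle and 107 to 454 CPM with hemin, with the top value in hemin 1. The endothelial marker Cldn5 had 3 counts over the vehicle libraries and 1 over the hemin libraries, while Pecam1, another, was at 0.464, 0.366 and 0.286 CPM with vehicle and 11.7, 25.4 and 28.8 CPM with hemin (log2 fold change 5.83 ± 0.70 (SE), adjusted p = 0.00046). Of the microglia and macrophage markers 7 rose and 0 fell of 18 tested (2 rose without vehicle 2 or 3 or hemin 1), with a median log2 change of 2.00. Their summed level was 37 to 93.2 CPM with vehicle and 137 to 454 CPM with hemin. The microglial gene Aif1 had 4 counts with vehicle and 54 with hemin, and Cd68, of lysosomes in phagocytes, was at 3.90, 8.32 and 1.52 CPM with vehicle and 32.6, 23 and 18.6 CPM with hemin (log2 fold change 2.43 ± 0.50 (SE), adjusted p = 0.0074). The part of these cell types in the chemokine, collagen and protease results was not tested. In bulk RNA, more or fewer cells of a type and more or less RNA per cell cannot be told apart.

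Some genes had no vehicle counts at all. There were 737 such genes with more than 3 counts over the hemin libraries, 443 of them with counts in all 3, and 75 with a hemin mean of at least 1 CPM. The reverse held for 39 genes, 17 of them with counts in all 3 vehicle libraries. Edn1, endothelin 1, a peptide that acts on glia and vessels, had 5.75, 17.2 and 13.8 CPM with hemin. Hdc, histidine decarboxylase, which makes histamine, had 4.86, 12.5 and 19.7 CPM. Tac1, the precursor of substance P, had 10.8, 7.79 and 8.72 CPM. Each of the 3 was detected in every hemin library. Tac1 was even over them, and Edn1 and Hdc were lowest in hemin 1.

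Pomc, the precursor of melanocortins and an opioid peptide, had 3.59, 8.70 and 9.56 CPM. Lexm, of lymphocyte expansion, had 5.75, 6.87 and 1.40 CPM, and Kif19b, a kinesin, 3.17, 5.74 and 4.91 CPM. The pseudogene Idi1-ps1 had 4.53, 16.9 and 34.6 CPM; its near-identical parent Idi1, an enzyme of isoprenoid synthesis, averaged 189 to 420.2 CPM and was not called, and the authors' counting could split reads between them. Near-absent genes of other tissues were also called: Myod1, the muscle determination factor, was at 0.0928, 0.0914 and 0 CPM with vehicle and 33.8, 33.1 and 10.02 CPM with hemin, and Ampd1, the muscle AMP deaminase, at 0.0928, 0 and 0 CPM with vehicle and 3.37, 14.7 and 14.8 CPM with hemin. Of the genes lost with hemin, H3c14, a histone H3 gene, was at 2.60, 4.17 and 1.05 CPM with vehicle and at 0 with hemin, a call lost without vehicle 1 or 2 or hemin 2 (adjusted p up to 0.063).

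Some transcription factors of the lineage fell. Of the oligodendrocyte lineage transcription factors 1 rose and 11 fell of 25 tested (0 rose without any vehicle library or hemin 2 or 3, 4 to 7 fell without any of the 6), with a median log2 change of -1.07. Olig2, required for the lineage, was at 363, 477 and 644 CPM with vehicle and 125, 54.3 and 47.7 CPM with hemin (log2 fold change -2.71 ± 0.50 (SE), adjusted p = 0.004). Sox2, a stem and progenitor factor, was at 387, 314 and 413 CPM with vehicle and 135, 118 and 101 CPM with hemin (log2 fold change -1.65 ± 0.25 (SE), adjusted p = 0.0016). Hemin and vehicle did not overlap for either gene, and hemin 1 kept the highest level of the treated libraries in both.

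Myrf, the factor that switches on myelin genes, was at 349, 281 and 181 CPM with vehicle and 15.9, 36.4 and 61.9 CPM with hemin (log2 fold change -2.83 ± 0.57 (SE), adjusted p = 0.0062), with hemin 1 lowest instead. Sox10, needed for myelination, was at 354, 274 and 363 CPM with vehicle and 42.8, 47.9 and 100.1 CPM with hemin, and its call (log2 fold change -2.38 ± 0.73 (SE), adjusted p = 0.037) was lost without vehicle 1, 2 or 3 or hemin 1 or 2 (adjusted p up to 0.12). The 1 member that rose was Hes1, a Notch target that represses differentiation (5.10, 9.87 and 10.9 CPM with vehicle and 15.5, 26 and 47.5 CPM with hemin; lost without vehicle 1, 2 or 3 or hemin 2 or 3 (adjusted p up to 0.14)).

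Few surface markers of the progenitor passed the test. Of the progenitor receptors and surface markers 0 rose and 2 fell of 24 tested (0 to 1 fell without any vehicle library or hemin 1 or 2, 4 fell without stattic 3), a called share near the background. Their median log2 change was -0.78. Of the 24, 11 were lower and 0 higher in every hemin library than in every vehicle library. Over all tested genes 24.5% were lower and 25.6% higher in this way. Gpr17, a receptor of committed progenitors, fell (683, 218 and 762 CPM with vehicle and 22.6, 25.8 and 92.6 CPM with hemin; log2 fold change -3.56 ± 1.01 (SE), adjusted p = 0.027), a call lost without vehicle 1 or 3 or hemin 1 or 2 (adjusted p up to 0.1). Pdgfra, the receptor for the main progenitor mitogen, had 313, 406 and 745 CPM with vehicle and 95.4, 131 and 145 CPM with hemin and was not called (log2 fold change -1.98 ± 0.71 (SE), adjusted p = 0.065). Cspg4, the NG2 proteoglycan, had 72.7, 64.9 and 125 CPM with vehicle and 27.5, 28.9 and 37.6 CPM with hemin (log2 fold change -1.48 ± 0.73 (SE), adjusted p = 0.17). The groups did not overlap for either.

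Of the myelin protein and lipid genes 0 rose and 4 fell of 22 tested (1 to 2 fell without any vehicle library or hemin 1 or 2), with a median log2 change of -1.81. Of the 22, 12 were lower in every hemin library than in every vehicle library, against 24.5% of all tested genes, and 0 were higher in every one. Omg, a myelin glycoprotein, was at 59.6, 35.5 and 83.3 CPM with vehicle and 3.17, 5.12 and 9.92 CPM with hemin (log2 fold change -3.29 ± 0.63 (SE), adjusted p = 0.0049). Nfasc, which encodes the adhesion molecule of the axon-glia junction, was at 1408, 1490.0 and 709.8 CPM with vehicle and 44.1, 143 and 275 CPM with hemin (log2 fold change -2.96 ± 0.75 (SE), adjusted p = 0.018), lost without vehicle 1 or hemin 2 (adjusted p up to 0.07). Mbp, myelin basic protein, varied among the treated libraries, with 2129.8, 3342 and 1014 CPM with vehicle and 20.1, 732 and 657 CPM with hemin. It was lowest in hemin 1 and was not called (log2 fold change -2.20 ± 1.06 (SE), adjusted p = 0.16). Per-library medians of the list were -2.65, -1.07 and -1.0 in hemin 1, 2 and 3.

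Falls were also found among adhesion and signalling genes. Tns3, tensin 3, which links integrins to actin and marks immature oligodendrocytes, was at 727, 605 and 554 CPM with vehicle and 97.1, 84.7 and 116 CPM with hemin (log2 fold change -2.66 ± 0.23 (SE), adjusted p = 4.5e-05). Hipk2, a stress-regulated kinase, was at 825, 539 and 625 CPM with vehicle and 156, 137 and 152 CPM with hemin (log2 fold change -2.16 ± 0.30 (SE), adjusted p = 0.0011). Apc2, a microtubule-binding homolog of the WNT regulator APC, was at 255, 142 and 177 CPM with vehicle and 23.6, 21.5 and 29.6 CPM with hemin (log2 fold change -2.94 ± 0.27 (SE), adjusted p = 7.1e-05). Treated libraries agreed closely on these 3 genes. Dlk1, a membrane ligand of the Notch family, was at 47.8, 72.9 and 109 CPM with vehicle and 8.82, 7.07 and 5.81 CPM with hemin (log2 fold change -3.40 ± 0.43 (SE), adjusted p = 0.00059). Rassf10, a RAS-association domain protein, fell from 22.8 ± 15.5 to 1.82 ± 1.40 CPM (SD, n = 3). Syt11, a synaptotagmin, was at 1169, 1178 and 924 CPM with vehicle and 386, 298 and 286 CPM with hemin (log2 fold change -1.75 ± 0.31 (SE), adjusted p = 0.0036). Aatk, a kinase of differentiating neural cells, fell from 189.9 ± 42.8 to 19.9 ± 14.1 CPM, with hemin 1 lowest.

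Several ion channel genes fell. Of the sodium, calcium and potassium channels 1 rose and 5 fell of 25 tested (0 rose without vehicle 1, 3 fell without hemin 2), with a median log2 change of -0.31. Kcna6, a voltage-gated potassium channel, was at 63, 74.3 and 74.2 CPM with vehicle and 5.95, 8.10 and 11.6 CPM with hemin (log2 fold change -3.04 ± 0.29 (SE), adjusted p = 9e-05). Kcna2, of the same family, was at 177, 179.8 and 149 CPM with vehicle and 19.6, 27.5 and 45.7 CPM with hemin (log2 fold change -2.44 ± 0.38 (SE), adjusted p = 0.0018). Kcnj10, the glial inward rectifier Kir4.1, was at 240.1, 136 and 120.1 CPM with vehicle and 33.9, 28.5 and 46.9 CPM with hemin (log2 fold change -2.18 ± 0.32 (SE), adjusted p = 0.0014). All 3 fell without overlap, whereas Kcna1, of the same family as Kcna2 and Kcna6, rose from 1.59 ± 0.353 to 7.93 ± 3.20 CPM (SD, n = 3), a call lost without vehicle 1 (adjusted p up to 0.053). Of the glutamate and GABA receptors 0 rose and 1 fell of 28 tested (0 fell without vehicle 1 or hemin 1), with a median log2 change of -0.20.

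Of the axon guidance and synaptic adhesion genes 1 rose and 6 fell of 33 tested (0 rose without any vehicle library or hemin 2, 3 rose without stattic 3, 1 to 2 fell without any vehicle library or hemin 1 or 2), with a median log2 change of -0.43. Sema4d, a semaphorin, fell from 75.2 ± 27.1 to 20.1 ± 5.18 CPM (SD, n = 3; lost without vehicle 1 (adjusted p up to 0.054)). Of the ABC transporters 1 rose and 4 fell of 24 tested (0 rose without any vehicle library or hemin 1 or 2, 2 rose without stattic 3, 2 fell without vehicle 1 or 2 or hemin 2), with a median log2 change of 0.28. In the WNT list 1 rose and 2 fell of 22 tested (0 fell without any of the 6), with a median log2 change of -0.15. In the Notch list 3 rose and 3 fell of 20 tested (0 to 1 rose without any vehicle library or hemin 2 or 3, 1 fell without vehicle 3 or hemin 2), with a median log2 change of -0.32. Of the BMP and TGF-beta genes 6 rose and 3 fell of 22 tested (0 to 1 fell without vehicle 1 or 3 or hemin 1 or 2), with a median log2 change of 0.20. Bmp2 rose (0.186, 0.366 and 0.762 CPM with vehicle and 3.27, 3.79 and 4.11 CPM with hemin; log2 fold change 3.06 ± 0.49 (SE), adjusted p = 0.0022). Bmp4, another BMP ligand, fell (74.8, 24.5 and 56 CPM with vehicle and 1.98, 5.84 and 7.11 CPM with hemin; log2 fold change -3.37 ± 0.82 (SE), adjusted p = 0.014; lost without vehicle 1 or hemin 2 (adjusted p up to 0.052)).

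Some cell cycle genes fell. Of the cell cycle and DNA replication list 0 rose and 8 fell of 34 tested (1 to 3 fell without vehicle 1 or 3 or any hemin library, 16 fell without stattic 3), with a median log2 change of -0.78. Of the 34, 23 were lower in every hemin library than in every vehicle library, against 24.5% of all tested genes. Rrm2, a ribonucleotide reductase subunit, was at 172, 143 and 328 CPM with vehicle and 70.1, 67.4 and 58 CPM with hemin (log2 fold change -1.72 ± 0.39 (SE), adjusted p = 0.011). Ccne1, cyclin E1, was at 29.6, 19.1 and 45.7 CPM with vehicle and 10.8, 8.30 and 6.41 CPM with hemin, lost without vehicle 3 or hemin 2 (adjusted p up to 0.065). Mki67, the proliferation marker, had 629, 465 and 749 CPM with vehicle and 86.7, 309.8 and 224 CPM with hemin (log2 fold change -1.57 ± 0.50 (SE), adjusted p = 0.043), a call lost without vehicle 1, 2 or 3 or hemin 1, 2 or 3 (adjusted p up to 0.12). Vehicle 3 was the highest library for all 3 genes.

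Some growth arrest genes rose. Of the p53 targets 8 rose and 0 fell of 22 tested (5 rose without any vehicle library or hemin 2, 1 fell without stattic 3), with a median log2 change of 0.73. Gadd45b, a stress-induced arrest gene, was at 0.835, 2.28 and 2.38 CPM with vehicle and 85.7, 121 and 52.7 CPM with hemin (log2 fold change 5.55 ± 0.62 (SE), adjusted p = 0.00026). Plk3, a stress-responsive kinase, was at 5.20, 10.3 and 6.09 CPM with vehicle and 65.7, 68.7 and 51.9 CPM with hemin (log2 fold change 3.10 ± 0.28 (SE), adjusted p = 6.6e-05). Cdkn1a, the cyclin-dependent kinase inhibitor p21, was at 81.2, 108 and 96 CPM with vehicle and 1095, 779.6 and 150.2 CPM with hemin (log2 fold change 2.83 ± 0.76 (SE), adjusted p = 0.022), a call lost without vehicle 1, 2 or 3 or hemin 1 or 2 (adjusted p up to 0.084). Hemin 3 was the lowest treated library for each of them. Of the BCL2 family 2 rose and 1 fell of 17 tested (0 to 1 rose without any vehicle library or hemin 2, 0 fell without any vehicle library or hemin 1 or 2, 2 fell without stattic 3), with a median log2 change of -0.20. The death-promoting Bcl2l11 and Pmaip1 rose from 13.1 ± 1.52 to 43.3 ± 9.77 CPM and from 4.62 ± 1.33 to 55.6 ± 40.5 CPM (SD, n = 3), and the survival gene Bcl2l2 fell from 54.6 ± 8.30 to 31 ± 9.28 CPM. The 3 calls were lost without vehicle 3 or hemin 2 (adjusted p up to 0.053), without vehicle 1, 2 or 3 or hemin 2 (adjusted p up to 0.072) and without vehicle 1, 2 or 3 or hemin 1 or 2 (adjusted p up to 0.11).

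Some metabolic genes moved. Of the cholesterol synthesis and SREBP2 targets 7 rose and 0 fell of 25 tested (2 to 4 rose without any vehicle library or hemin 2 or 3), with a median log2 change of 0.91. Cyp51, a sterol demethylase, was at 325, 262 and 258 CPM with vehicle and 835, 905 and 1045 CPM with hemin (log2 fold change 1.72 ± 0.36 (SE), adjusted p = 0.0072). Insig1, a sterol-sensing brake on the pathway, was at 149, 94.8 and 112 CPM with vehicle and 243, 427 and 656 CPM with hemin (log2 fold change 1.90 ± 0.44 (SE), adjusted p = 0.012). Both were highest in hemin 3 and lowest in hemin 1. Of the AMPK and fatty acid synthesis genes 1 rose and 2 fell of 20 tested (0 rose without any vehicle library or hemin 2 or 3, 1 fell without vehicle 1 or 2 or any hemin library), with a median log2 change of -0.18. Camkk2, an upstream kinase of AMPK, was at 32.4, 38.8 and 35.2 CPM with vehicle and 11.4, 12.7 and 11.1 CPM with hemin (log2 fold change -1.59 ± 0.23 (SE), adjusted p = 0.0013). Of the hypoxia-response genes 5 rose and 4 fell of 20 tested (1 to 2 rose without any vehicle library or hemin 1 or 2, 1 to 2 fell without any vehicle library or hemin 2 or 3), with a median log2 change of 0.32. Adm, adrenomedullin, rose (0.186, 1.01 and 1.33 CPM with vehicle and 23.7, 12.5 and 5.21 CPM with hemin; log2 fold change 4.02 ± 0.88 (SE), adjusted p = 0.0096). Egln1, an oxygen-sensing prolyl hydroxylase, fell (79.1, 88 and 101 CPM with vehicle and 46.1, 34.8 and 41 CPM with hemin; log2 fold change -1.14 ± 0.19 (SE), adjusted p = 0.003).

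Of the glycolysis and glucose uptake genes 3 rose and 1 fell of 22 tested (1 rose without vehicle 1 or 2, 6 rose without stattic 3, 0 fell without vehicle 1 or 3 or any hemin library), with a median log2 change of 0.33. The glucose carrier Slc2a3 rose from 20.2 ± 2.98 to 52.3 ± 8.54 CPM (SD, n = 3). The glial carrier Slc2a1 rose from 39.1 ± 2.74 to 199 ± 89.96 CPM, a call lost without vehicle 1, 2 or 3 or hemin 1 or 2 (adjusted p up to 0.07). Of the metallothioneins and metal transporters 2 rose and 0 fell of 14 tested (0 to 1 rose without any of the 6, 1 fell without stattic 3), with a median log2 change of -0.08. Of the replication-dependent histones 0 of 3 tested were called by edgeR (1 at an unadjusted p under 0.05, 1 by DESeq2). Respiratory chain subunits had 0 called of 26 by edgeR, 1 at an unadjusted p under 0.05 and 0 by DESeq2 (8 rose without stattic 3), with a median log2 change of 0.40. Of the 26, 15 were higher in every hemin library than in every vehicle library, against 25.6% of all tested genes. Among ribosomal protein genes 5 rose and 0 fell of 27 tested (0 to 2 rose without any of the 6, 21 rose without stattic 3), with a median log2 change of 1.00. By the same comparison, 25 of 27 were higher in every hemin library, again against 25.6% of all tested genes. Ribosomal protein genes took 2.67% to 3.14% of vehicle counts and 4.76% to 5.84% of hemin counts.

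In the cytoskeleton list 5 rose and 0 fell of 22 tested (3 rose without any vehicle library), with a median log2 change of 0.27. Nefm, the medium neurofilament, was at 6.77, 6.85 and 12.2 CPM with vehicle and 288, 334 and 192 CPM with hemin (log2 fold change 4.98 ± 0.46 (SE), adjusted p = 7.1e-05). Nefl, the light one, was at 7.79, 8.50 and 16.6 CPM with vehicle and 111, 83.7 and 29.1 CPM with hemin (log2 fold change 2.77 ± 0.47 (SE), adjusted p = 0.003). Both are also neuron markers. Of the neuron markers 4 rose and 1 fell of 14 tested (2 rose without vehicle 2 or 3), with a median log2 change of 0.26, and their summed level was 1071 to 1341 CPM with vehicle and 1269 to 1562 CPM with hemin. The member that fell was Dcx, a protein of migrating neuroblasts, at 193, 149 and 169 CPM with vehicle and 51.1, 47.6 and 57.8 CPM with hemin (log2 fold change -1.71 ± 0.35 (SE), adjusted p = 0.0066). Of the integrins and laminins 4 rose and 1 fell of 23 tested, with a median log2 change of 0.21. Lama1, a laminin chain, was at 5.75, 4.48 and 10.3 CPM with vehicle and 65.6, 40.3 and 33 CPM with hemin (log2 fold change 2.76 ± 0.49 (SE), adjusted p = 0.0034).

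**Figure D3:**
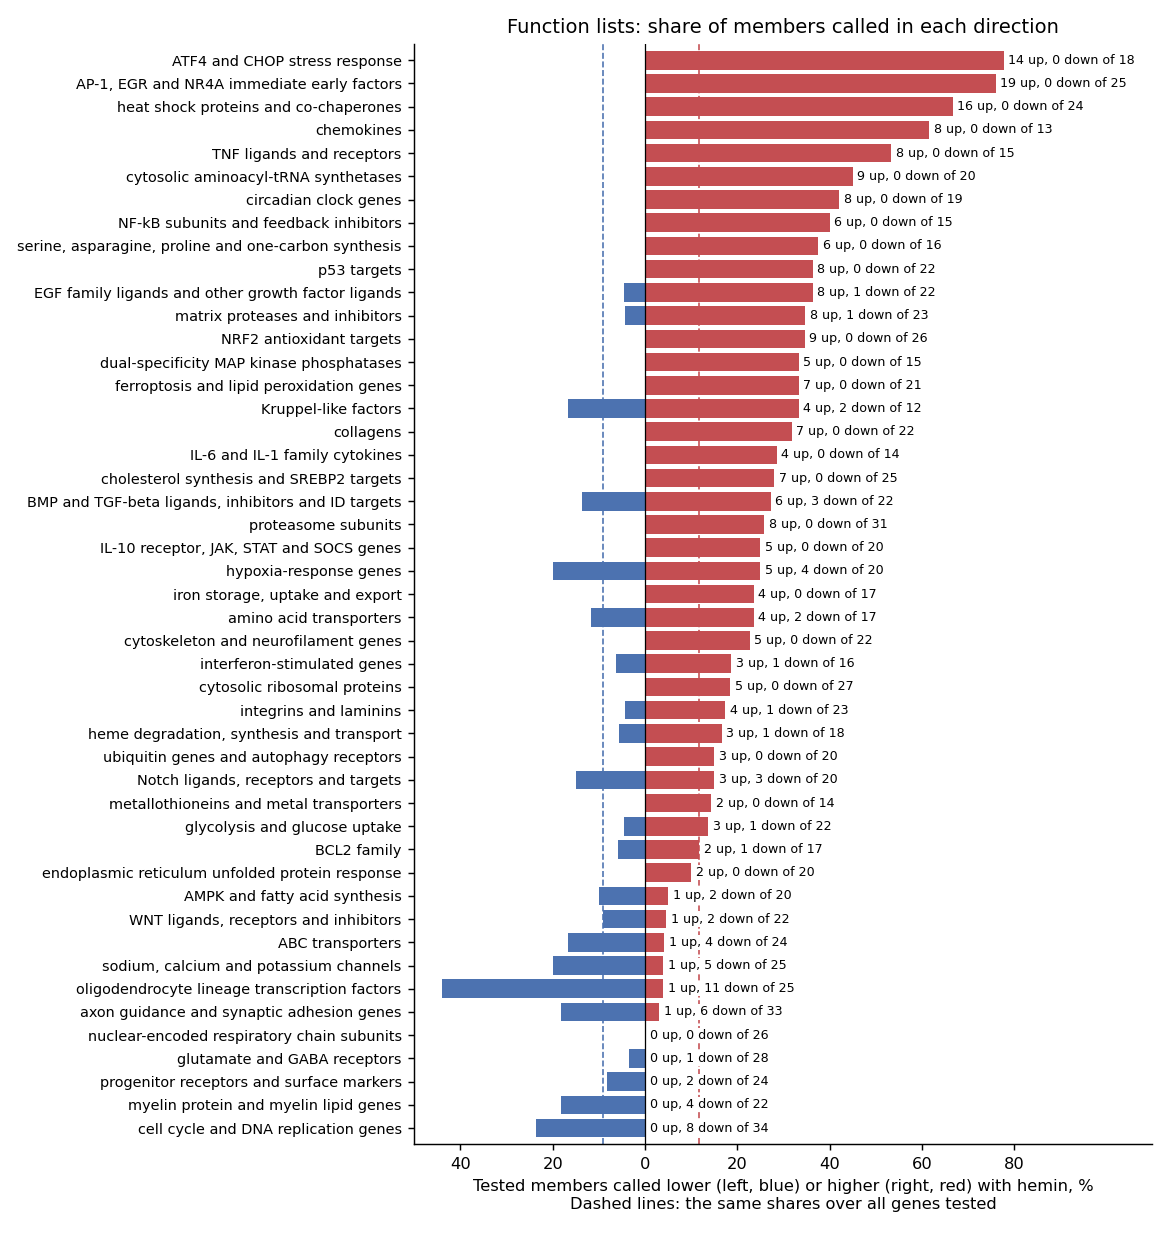
Share of the tested members of each function list with at least 10 tested members that was called lower (blue, left) or higher (red, right) with hemin, in percent, with the counts beside each bar. Dashed lines mark the shares over all genes tested, 11.7% higher and 9.15% lower. The ATF4 and CHOP, immediate early and heat shock lists lie farthest above the red line, and the lineage transcription factors lie farthest beyond the blue one.

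The treated libraries did not rank alike in each group. Hemin 1 had the highest median of the ATF4 and CHOP list (3.15, 2.68 and 1.61 in hemin 1, 2 and 3, log2(CPM + 1) against the vehicle mean) and of the NRF2 list. Hemin 2 had the highest median of the heat shock list (1.41, 1.72 and 0.95). Hemin 3 had the highest median of the cholesterol list (0.41, 0.87 and 1.25) and of the clock genes (0.46, 0.73 and 0.82). The fibroblast and vascular markers were highest in hemin 1 (3.22, 1.20 and 1.45). What set this order was not tested.

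**Figure D4:**
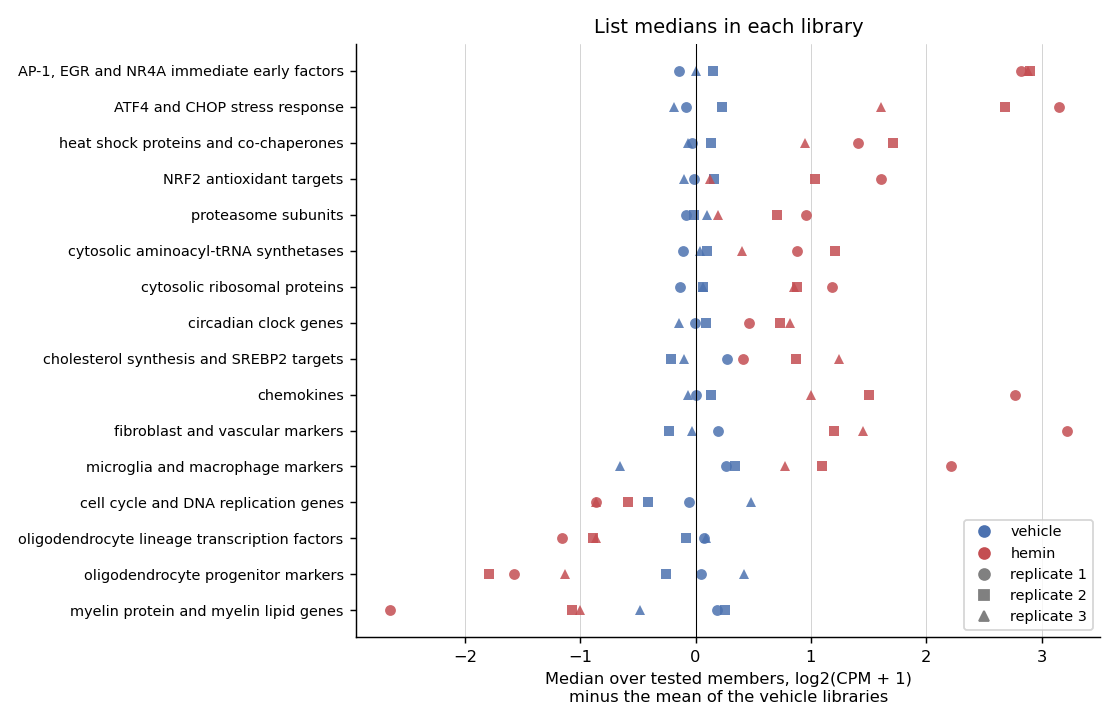
Median over the tested members of 16 lists in each library, on the log2(CPM + 1) scale, minus the mean of the vehicle libraries for the same gene. Vehicle libraries are blue and hemin libraries red, with 1 marker shape per replicate. The 3 hemin libraries coincide for the immediate early list and spread widely for the NRF2, fibroblast and vascular, and myelin lists.

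The deposited length of some genes changed. The deposited files give each gene a length per library, which in tables of this kind is an average over a gene's transcripts weighted by their estimated share. Of 9312 genes with at least 10 CPM in both groups, 7193 had a length that varied. In limma on log2 length, 396 (5.51%) were shorter with hemin and 72 (1.00%) longer. Of those shorter, 34 changed by at least 0.5 in log2. In level, 85 of the 396 were called (25 higher, 60 lower) and 19 of the 72 (8 higher, 11 lower). Over all 7193 genes with a varying length 1217 were called in level, 439 higher and 778 lower. Without vehicle 1, 2 or 3, 91, 77 and 128 were shorter, and 177 without hemin 2. Longer genes then numbered 15, 10, 18 and 26, and 48 without hemin 3. Without hemin 1, 448 were shorter and 241 longer. This comparison was added after the column was seen to vary.

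Zcchc7, a zinc finger protein of nuclear RNA surveillance, had the largest change among those called, with 9907, 9383 and 8531 bases with vehicle and 3471, 3404 and 2799 bases with hemin (log2 change -1.53, adjusted p = 0.0086). Mdm4, an inhibitor of p53, had 9064, 8708 and 8579 bases with vehicle and 5607, 5019 and 4982 bases with hemin (log2 change -0.76, adjusted p = 0.0091). Egr2, an immediate early factor, had 8313, 8189 and 8251 bases with vehicle and 5411, 4620.2 and 4509 bases with hemin (log2 change -0.77, adjusted p = 0.014), while its level was not called (adjusted p = 0.54). None of these 3 genes had overlapping groups. In the other direction Vmp1, an autophagy protein of the endoplasmic reticulum, had 1909.6, 2012 and 1851 bases with vehicle and 2608, 2771 and 2781 bases with hemin (log2 change 0.50, adjusted p = 0.011), and its level rose (log2 fold change 1.40 ± 0.25 (SE), adjusted p = 0.0033). Which transcripts these lengths stand for was not analysed here.

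Gene length moved with level as well. Tested genes were ranked by length in 5 equal bins and compared on edgeR's log2 CPM, which adds a small prior count. Those in the shortest bin (median length 1322 bases) stood 0.47, 0.27 and 0.22 above the vehicle mean in hemin 1, 2 and 3 (median). Those in the longest bin (6701 bases) stood at -0.46, -0.11 and -0.09. Vehicle libraries stayed within -0.05 to 0.06 in both. The part of this trend in the ribosomal, proteasome and respiratory chain medians was not tested.

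**Figure D5:**
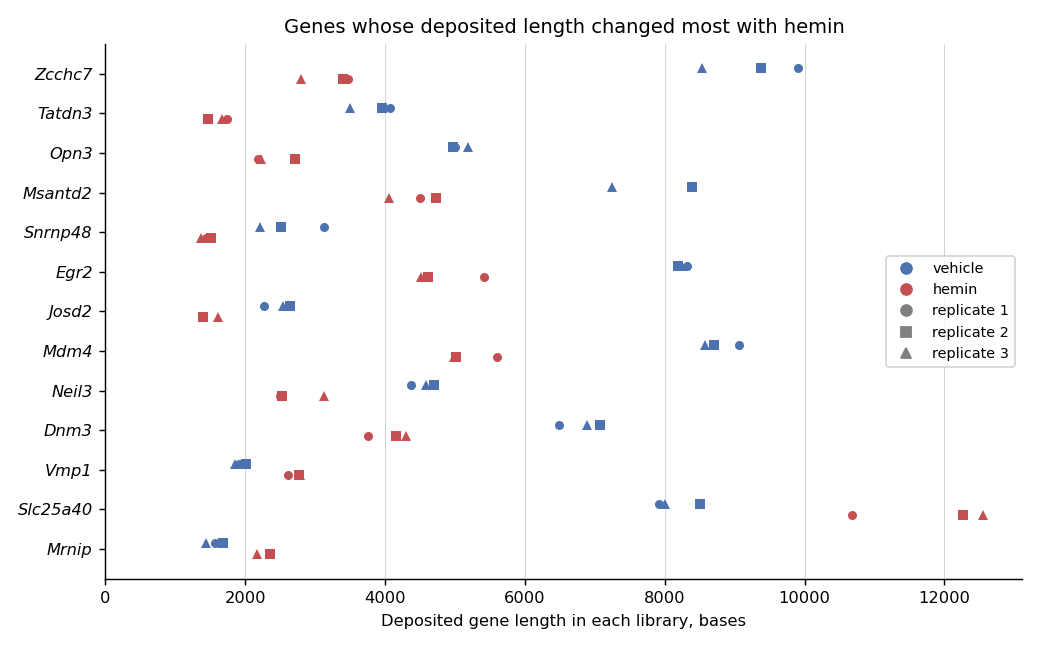
Deposited length in bases of the 10 genes that shortened most and the 3 that lengthened most with hemin, in each of the 3 vehicle (blue) and 3 hemin (red) libraries, with 1 marker shape per replicate. The groups are separate for each gene drawn.

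Only 559 genes (4.0%) had a 95% interval that lay within 1.5-fold of no change, so for most genes that were not called a difference of that size is not excluded. Among genes with a mean of at least 100 CPM, the intervals nearest 0 were those of Kctd20, Pitpnb, Rab10, Nup188, Rab18 and Snx4. Rab10, a GTPase of vesicle transport, had 367, 356 and 344 CPM with vehicle and 333, 359.9 and 356 CPM with hemin (log2 fold change -0.03 ± 0.17 (SE), adjusted p = 0.93). Kctd20, an AKT regulator, had 105, 97.7 and 119 CPM with vehicle and 104, 105 and 109.6 CPM with hemin (log2 fold change -0.01 ± 0.17 (SE), adjusted p = 0.96). The groups overlapped for both. Col19a1, a collagen gene and the gene with the most counts in every library, had 15253, 14969 and 13387 CPM with vehicle and 18600.0, 19779 and 21019 CPM with hemin and was not called (log2 fold change 0.45 ± 0.32 (SE), adjusted p = 0.35).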

How the data were processed

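RNA libraries carried dUTP in their second strand and were read on a DNA nanoball sequencer, per the labels' protocols. Of tools, the submitters' processing notes list RSEM, Bowtie and Bowtie2, HISAT, StringTie, TopHat, Cufflinks and CASAVA, without role or version. The sources used here state neither the genome build nor whether counting used strand, so overlapping or antisense genes may share reads. Per the file headers, the authors deposited an expected count, an FPKM value and a gene length in bases per gene and library. Absent genes were taken as 0. Each library held about the same depth (9404448 to 10253038 expected counts), which limits the precision for genes near the floor of 3 counts; floors cover counting error only. Of the symbols, 99.1% matched the RefSeq gene table.

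Expected counts were rounded and tested in edgeR (4.0.16, R 4.3.3) with filterByExpr, TMM scaling and a robust quasi-likelihood fit over all 12 libraries, with 1 mean per group and no block. The edgeR fit was run on simulated counts in which some well-counted genes changed by known folds, and only their median fold changes were checked. False calls, the length test and the motif search were not checked in this way. Fold changes are given with their standard errors (SE). Deposited lengths were tested with limma (3.58.1). Alternatives were DESeq2 (1.42.0), limma-voom, log2(FPKM + 1) of the deposited FPKM values, other scalings and filters, a replicate block, a length offset, and libraries left out.

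Gene groups were 48 function lists and 6 marker lists. The members, lists, rules and tests were chosen with earlier results of these data known. Genes named were the 12 largest rises and falls, the 8 largest gains and losses in CPM, up to 5 members per list by adjusted p, genes without counts in 1 group, the 6 intervals nearest 0, the 5 widest hemin spreads, and a set of heme, stress and lineage genes; a few others were chosen after their values were seen. Left-out libraries are named as vehicle or hemin with their replicate number.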

Additional observations from a re-analysis of the deposited data

How the results depend on the processing

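No alternative turned the direction of a call among the genes named. Over their alternatives, 5574 values kept their side of the threshold, 597 lost the call and 140 gained one. Beside single genes, losses are listed mainly for left-out libraries, and other alternatives lost some of the same calls. On log2(FPKM + 1) these included Nqo1, Blvrb, Nupr1, Got1, Cp, Cdkn1a and Slc1a2. Genes called higher and lower numbered 1395 and 1593 with library totals, 2189 and 1728 with DESeq2, 1659 and 1255 with DESeq2 size factors, 1749 and 1231 with no filter, 1404 and 1405 with limma-voom, and 2028 and 1488 with a length offset. Calls higher fell to 1084 with a mean of at least 5 CPM, 873 on log2(FPKM + 1), 906 with a pseudocount of 0.1 and 1052 without the filter on FPKM, where 1606, 1466 and 1526 were lower. Against the full fit, library totals moved the median log2 change of all genes by -0.10 and log2(FPKM + 1) by -0.16, and the share of calls that were higher from 56.2% to 46.7% and 35.2%. Using the 6 libraries alone gave 2233 higher and 2113 lower. With each of 7 libraries left out (vehicle 1 to 3, hemin 1 to 3 and stattic 3; the other 5 were not left out), 803 to 2287 genes were higher and 442 to 1969 lower, the top values without stattic 3. With that library and hemin replicate 1 both left out, 2066 were higher and 1651 lower.

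With a replicate block 2167 genes were higher and 1833 lower. Same-numbered libraries correlated in their deviations at 0.15, 0.08 and 0.32. Hemin 1 correlated at 0.20 with vehicle 2 and -0.28 with vehicle 3. Hemin 2 correlated at -0.05 with vehicle 1 and -0.03 with vehicle 3. Hemin 3 correlated at -0.13 with vehicle 1 and -0.26 with vehicle 2. Hemin 2 and 3 thus correlated best with the vehicle library of their own number, and hemin 1 with vehicle 2. Whether equal numbers mark pairs is unknown, and the main fit used no block. For deposited length, 77 to 448 genes were shorter and 10 to 241 longer with 1 library left out, and 254 were shorter and 59 longer at a mean of at least 50 CPM. Depth limited the genes near 0 counts.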
